A study of Mus musculus with 45 samples.

Results

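Hox genes encode homeodomain transcription factors that give cells their position along the body axis, and they lie in clusters in which gene order matches the order of expression from anterior to posterior. Within a cluster the genes are numbered by paralog group, from the anterior end with low numbers to the posterior end with high numbers, and Polycomb complexes keep silent segments of a cluster repressed while Trithorax complexes keep active segments open. Several Hox genes are known to act in mammary gland growth, and Hoxa5 is also known for its role in lung development.

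The genes described here are 38 protein-coding Hox genes, listed by symbol, of 54838 genes in the deposited table. They comprise 10 genes of HoxA on chromosome 6, 10 of HoxB on chromosome 11, 9 of HoxC on chromosome 15 and 9 of HoxD on chromosome 2. Poly-A RNA was sequenced from 15 mouse mammary cancer cell lines in 3 technical repeats each, which gave 45 libraries with 9723860 to 16943900 reads on genes. All lines carry the *PyMT* oncogene, which in the MMTV-*PyMT* mouse is driven in mammary epithelium. Neither the age of the mice nor whether a line is 1 clone is given in the sources used here. YEJG and YEJH are parental lines from primary mammary tumours. From YEJG came 1 line of a fat pad tumour (YEJG-FP) and 2 lung lines (YEJG-M1 and YEJG-M2), and from YEJH came 5 fat pad lines (YEJH-FP1 to YEJH-FP5) and 5 lung lines (YEJH-M1 to YEJH-M5). The lung lines are labelled by whole lung, except YEJH-M3, which is labelled by lung metastases. No line was treated, and all were grown in dishes before RNA was taken. The questions were which segments of the clusters were expressed, and whether derived lines resembled the line they came from.

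Hox transcripts were scarce. All 38 genes together received 409 of 634793219 reads, and HoxA received 407 of them. A library held between 0 and 40 Hox reads, with a median of 3. Reads were scaled with the TMM method to CPM, a library's count of a gene relative to its total, and a gene was called expressed in a line at a mean of at least 1 CPM over the 3 libraries. By this rule Hoxa5 was the only expressed member, in 3 lines, YEJG-M1, YEJG-M2 and YEJH-M1.

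The reads on HoxA fell mainly on Hoxa5 and its neighbour Hoxa6, which held 58.5% and 20.4% of them. The windows around their annotated starts are shown because they are the pair of members that carry most of the signal and that were high in the same lines. They run from 250 bases before to 50 bases after the start, are taken from RefSeq on GRCm38.p6 and read on the minus strand at chr6:52204538-52204837 for Hoxa5 and chr6:52208623-52208922 for Hoxa6. Capitals mark matches to CCAAT or TATAAA, or to TGATNNAT, a core bound by Hox proteins with Pbx partners, on either strand.
Hoxa5: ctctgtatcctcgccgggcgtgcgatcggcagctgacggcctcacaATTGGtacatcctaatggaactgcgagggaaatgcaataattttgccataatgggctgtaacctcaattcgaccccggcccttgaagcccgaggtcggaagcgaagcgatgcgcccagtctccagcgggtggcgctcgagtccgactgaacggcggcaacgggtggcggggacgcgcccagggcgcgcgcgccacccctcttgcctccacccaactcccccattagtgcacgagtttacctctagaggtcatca
Hoxa6: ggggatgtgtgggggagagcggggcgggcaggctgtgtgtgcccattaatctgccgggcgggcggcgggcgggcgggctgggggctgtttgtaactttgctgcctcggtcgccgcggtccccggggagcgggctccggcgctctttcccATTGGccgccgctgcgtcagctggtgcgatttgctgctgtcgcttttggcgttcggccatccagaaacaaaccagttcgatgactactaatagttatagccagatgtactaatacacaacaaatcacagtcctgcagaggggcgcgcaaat
Each window held 1 CCAAT match, written ATTGG on the strand shown, and no match to TATAAA or TGATNNAT. A CCAAT match was present in 37.8% of 27025 RefSeq windows of this length and in 15 of the 22 members for which a window was supplied. TATAAA was present in 14.1% of all windows and in 4 of those 22, and TGATNNAT in 9.09% and 3 of 22. These counts take 1 window a gene, the one with the lowest coordinate. Hoxa10 and Hoxd11 have 2 windows each, and the window of Hoxd11 that was left out held 1 TGATNNAT match. The Hoxa5 window had 29 CpG dinucleotides and the Hoxa6 window 26, where the median was 7.0 over all windows and 14.5 over the 22 members. The silent Hoxa13 had 45 CpG dinucleotides in its window and the silent Hoxa11 had 15.

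HoxB, HoxC and HoxD were almost without reads. The 28 genes of these clusters received 2 reads in 45 libraries, 1 on Hoxb13 in YEJG-FP and 1 on Hoxd8 in YEJH-FP3. The other 26 genes, among them Hoxb7, Hoxb9, Hoxc8 and Hoxd10, had 0 reads. A count of 0 over all libraries allows up to 3 reads, or 0.00472 CPM, for counting error only. Of the protein-coding genes in the table, 26.7% had at most 1 read in all libraries, against 31 of 38 Hox genes (81.6%). In the GRCm39 annotation each of these 28 genes has at least 1425 bases of exon that no other gene overlaps.

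**Figure D1:**
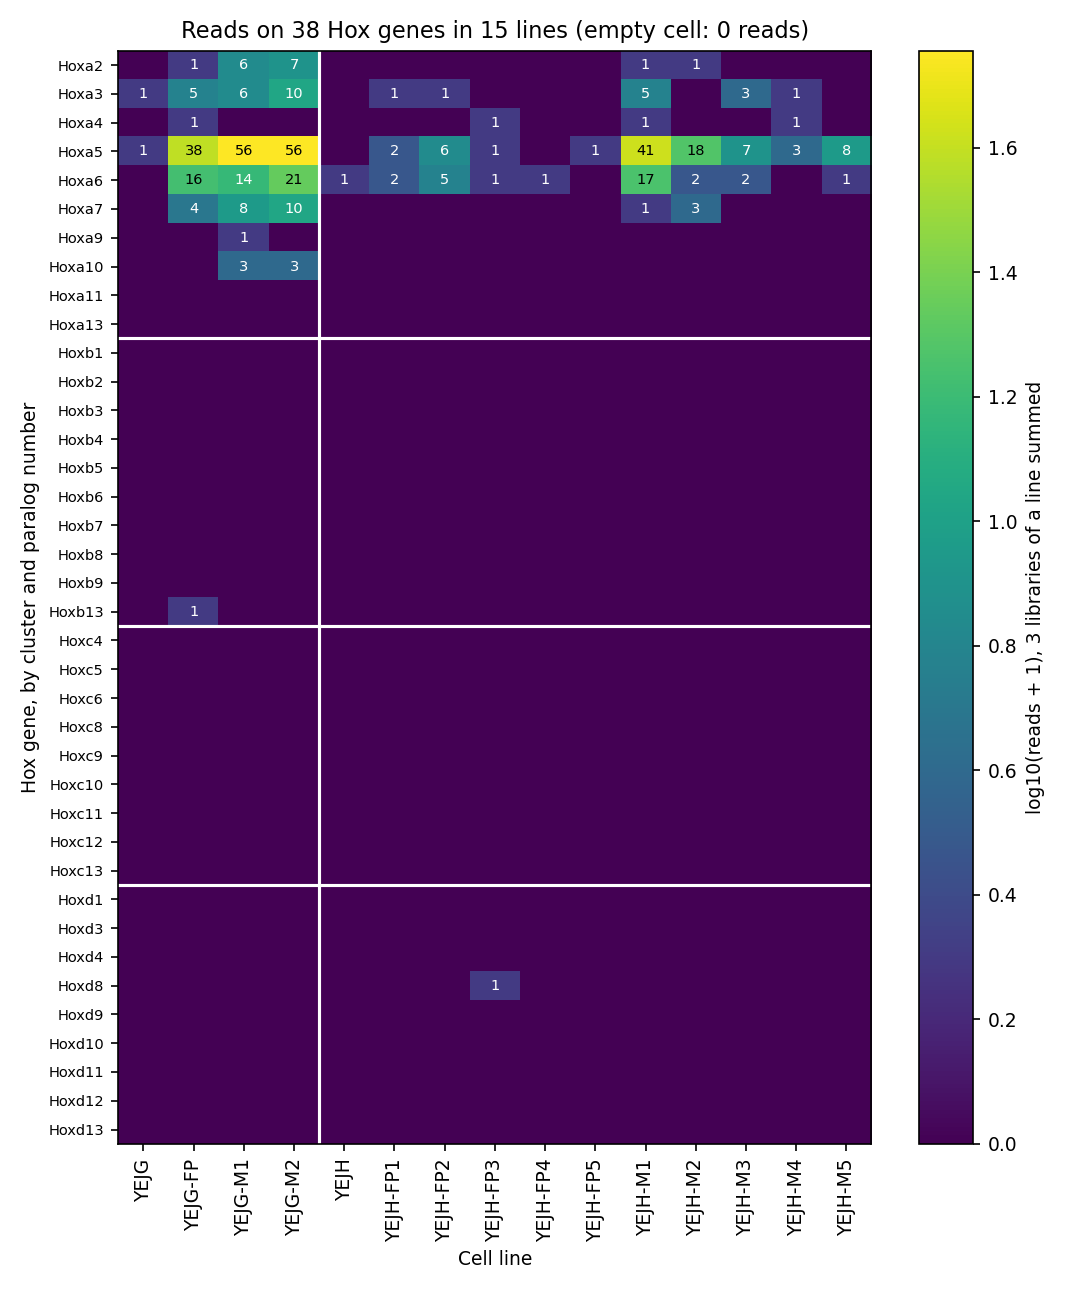
Reads on each of the 38 Hox genes (rows, by cluster and paralog number) in each of the 15 lines (columns), with the 3 libraries of a line summed and the colour on a log10(reads + 1) scale. Reads lie in HoxA, from Hoxa2 to Hoxa10, and the rows of HoxB, HoxC and HoxD hold 2 reads in all.

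Within HoxA the reads formed a central segment. Over all libraries Hoxa5 had 238 reads, Hoxa6 had 83, Hoxa3 had 33, Hoxa7 had 26 and Hoxa2 had 16. Towards the posterior end Hoxa9 had 1 read, Hoxa10 had 6, and Hoxa11 and Hoxa13, which pattern the distal limb and the urogenital tract, had 0. Hoxa4 had 4 reads in 4 different lines, although it lies between Hoxa3 and Hoxa5. Levels of different genes are compared per kilobase of exon. In the 3 YEJG-derived lines the mean level was 0.614 CPM per kb for Hoxa5, 0.459 for Hoxa6, 0.0607 for Hoxa7, 0.0409 for Hoxa2, 0.0247 for Hoxa3 and 0.0135 for Hoxa10. YEJH-M1 had the same leading pair, with 0.533 CPM per kb for Hoxa5 and 0.49 for Hoxa6, while Hoxa7 stood at 0.00826. The gap between the pair and the rest of the cluster was thus present in lines of both parental origins. Hoxa5 and Hoxa6 share no exon base with another annotated gene in GRCm39, but 24.9% of the exon bases of Hoxa2, 23.7% of Hoxa3 and 20.3% of Hoxa7 are also exons of non-coding transcripts. The library kit does not mark strand, so strand cannot tell reads in those stretches apart. The deposited counts keep ambiguous reads as a separate class, so such reads may be missing from these genes. Levels per kb divide by all exon bases and would then be too low for genes with shared exons. How far this applies is not known, as the annotation release is not given.

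**Figure D2:**
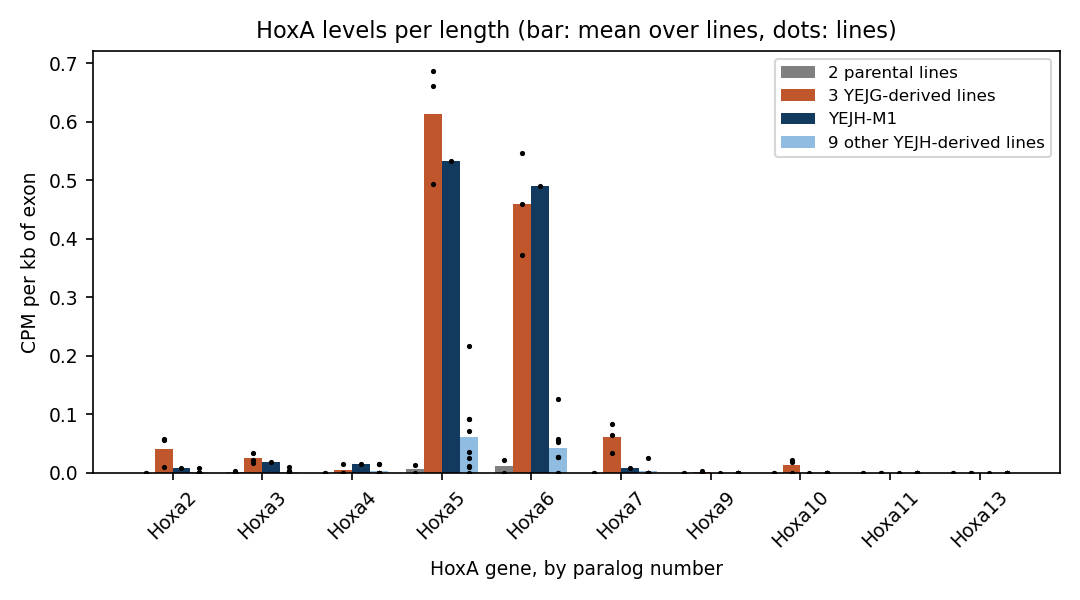
CPM per kilobase of exon (vertical axis) for the 10 HoxA genes in order of paralog number. Bars are means over lines and dots are single lines. Hoxa5 and Hoxa6 stand above the other genes in the 3 YEJG-derived lines (0.614 and 0.459 on average) and in YEJH-M1 (0.533 and 0.49).

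Parental lines lacked this segment at the depth reached. The 2 parental lines together had 3 HoxA reads. In YEJG these were 1 read on Hoxa3 and 1 on Hoxa5, and in YEJH 1 read on Hoxa6. Hoxa5 stood at 0.0248 CPM in YEJG (95% exact Poisson interval 0.000672 to 0.148) and at 0 reads in YEJH. The exact interval in YEJH ends at 0.0906 CPM, and the limit of 3 reads used for a count of 0 stands at 0.0737 CPM. Over single lines this limit of 3 reads lay between 0.0661 and 0.0796 CPM. These intervals and limits cover counting error only.

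Hoxa5 had more reads in every YEJG-derived line than in YEJG, although YEJG-FP stayed under the 1 CPM used to call a gene expressed. The libraries of YEJG-FP had 17, 12 and 9 Hoxa5 reads, those of YEJG-M1 had 10, 25 and 21, and those of YEJG-M2 had 16, 20 and 20. The 3 libraries of the parental line YEJG had 0, 0 and 1. These libraries are technical repeats, so they describe single lines and not the spread between lines. In CPM the levels were 0.928 ± 0.263 in YEJG-FP, 1.29 ± 0.394 in YEJG-M1 and 1.24 ± 0.0456 in YEJG-M2 (SD, n = 3 technical repeats each). Set against the 1 read of the parental line, the ratio of reads summed over the libraries of a line, scaled by their depth, was 35.2 for YEJG-FP (95% exact binomial interval 5.96 to 1430) and 46.8 for YEJG-M2 (8.07 to 1880), and for YEJG-M1 the interval ran from 8.61 to 2010. The intervals of the 3 derived lines overlapped one another, so no order among them can be read.

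In lines from YEJH the picture varied from line to line. YEJH-M1 had 5, 19 and 17 Hoxa5 reads in its libraries and a level of 1.00 CPM (95% exact Poisson interval 0.766 to 1.45). That level was 13.6-fold the limit of 3 reads, 0.0737 CPM, of the parental line YEJH. YEJH-M2 had 5, 7 and 6 reads and 0.407 CPM (0.235 to 0.627), 5.52-fold the same limit. The intervals of both lines began above 0.0906 CPM, where the exact interval of YEJH ends. YEJH-M1 thus lay among the YEJG-derived lines, and the interval of YEJH-M2 lay below those of YEJH-M1 and YEJG-FP but overlapped those of YEJH-M3, YEJH-M5 and YEJH-FP2. YEJH-M5 followed with 4, 1 and 3 reads, YEJH-M3 with 1, 3 and 3, and YEJH-M4 with 0, 2 and 1. Their levels of 0.174, 0.173 and 0.067 CPM had overlapping intervals. Among the fat pad lines, YEJH-FP2 had 1, 3 and 2 reads and 0.136 CPM, YEJH-FP1 had 0, 1 and 1, YEJH-FP3 and YEJH-FP5 had 1 read in 1 library each, and YEJH-FP4 had 0. All 5 lung lines of YEJH had at least 1 Hoxa5 read and 4 of the 5 fat pad lines did, and the groups overlapped because YEJH-FP2 lay above YEJH-M4.

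**Figure D3:**
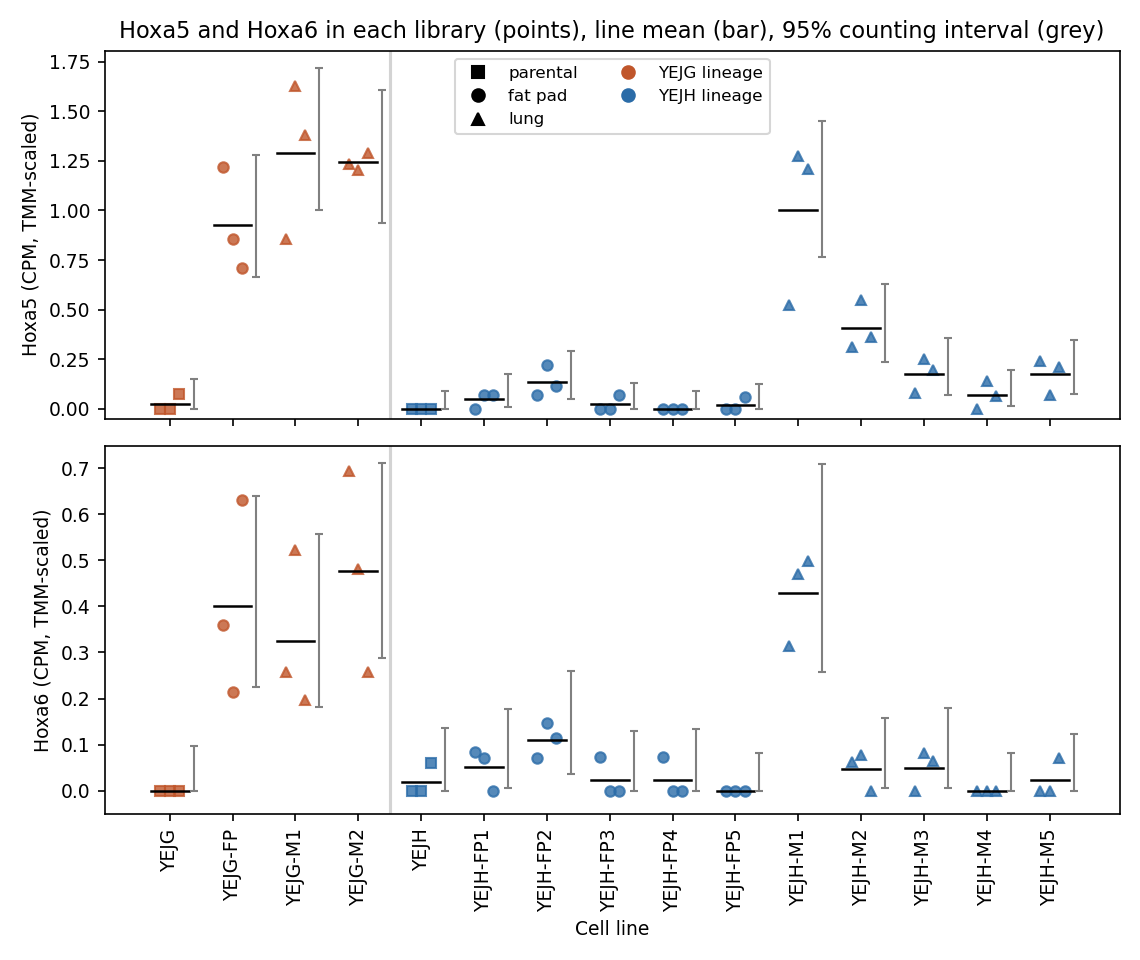
TMM-scaled CPM of Hoxa5 (top) and Hoxa6 (bottom) in each library, by line. Points are libraries, black bars are means of the 3 technical repeats and grey bars are 95% exact Poisson intervals of the line. The YEJG-derived lines and YEJH-M1 stand above the parental lines for both genes, and Hoxa5 of YEJH-M2 lies in between at 0.407 CPM.

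Hoxa6 had its most reads in the 4 lines with the most Hoxa5 reads, and fewer in the others. It reached 1 CPM in no line. It had 5, 3 and 8 reads in the libraries of YEJG-FP, 3, 8 and 3 in YEJG-M1 and 9, 8 and 4 in YEJG-M2, and 0 in all libraries of YEJG. The levels of 0.401, 0.325 and 0.478 CPM were 5.04-fold, 4.08-fold and 6.01-fold the limit of 3 reads, 0.0796 CPM, of the parental line. Their 95% exact Poisson intervals began at 0.181 CPM or higher, above 0.0979 CPM, where the interval of YEJG ends. YEJH-M1 had 3, 7 and 7 reads and 0.428 CPM, against 1 read in YEJH, with an exact 95% binomial interval of the ratio from 2.82 to 753. YEJH-FP2 had 5 reads, and its ratio to YEJH of 4.52 had an interval from 0.506 to 214. The other 8 YEJH-derived lines had 0 to 2 Hoxa6 reads each. YEJH-M2, which came next after YEJH-M1 for Hoxa5, had 2 Hoxa6 reads. Over the 15 lines Pearson's r of log2(CPM + 0.1) between Hoxa5 and Hoxa6 was 0.914, given as a description of lines that share a parental origin and mostly low counts.

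The flanking members Hoxa7 and Hoxa2 were seen mainly in lines from YEJG. Hoxa3 was seen in lines of both origins, with a mean of 0.17 CPM in YEJG-derived and 0.027 CPM in YEJH-derived lines. Hoxa7 had 4 reads in YEJG-FP, 8 in YEJG-M1 and 10 in YEJG-M2, and 4 reads in the 10 YEJH-derived lines together. Hoxa2, the most anterior HoxA member described, which patterns the second branchial arch, had 1, 6 and 7 reads in the 3 YEJG-derived lines and 2 reads in all YEJH-derived lines. Hoxa3, required for thymus and parathyroid formation, had 5, 6 and 10 reads in YEJG-FP, YEJG-M1 and YEJG-M2, and 11 in 5 of the YEJH-derived lines, 5 of them in YEJH-M1 and 3 in YEJH-M3. Hoxa10, which acts in the uterus, had 3 reads in each YEJG lung line and 0 in every other line. Hoxa9 had its single read in YEJG-M1. With more than 3 reads as the limit, 4 HoxA genes were above it in YEJG-FP (Hoxa3, Hoxa5, Hoxa6 and Hoxa7), 5 in each YEJG lung line (the same with Hoxa2 added), 3 in YEJH-M1, 2 in YEJH-FP2 and 1 each in YEJH-M2, YEJH-M3 and YEJH-M5. In the other lines no HoxA gene had more than 3 reads.

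Differences between groups of lines were tested with edgeR's quasi-likelihood test on counts summed per line, in 1 fit over 6 groups formed by origin and site, with Benjamini-Hochberg adjustment over 17110 genes. Of the 38 members only Hoxa5 and Hoxa6 passed the filter on low counts, and they could pass it only through the lines where they are high, so their number is no result about the other members. Their p-values share this limit and are given as a description. Without the filter the edgeR adjusted p between YEJG-derived and YEJH-derived lines was 0.000894 for Hoxa5 and 0.0187 for Hoxa6. In that fit it was 0.00524 for Hoxa7, 0.0218 for Hoxa3 and 0.0544 for Hoxa2. The same fit called 8.83% of all genes higher and 10.7% lower. With the filter Hoxa5 and Hoxa6 were both higher in YEJG-derived lines. Hoxa5 had means of 1.15 ± 0.196 CPM (SD, n = 3 lines) and 0.204 ± 0.304 CPM (SD, n = 10 lines), a log2 fold change of 3.01 (SE 0.621, adjusted p = 0.00203). Hoxa6 had means of 0.401 ± 0.0765 and 0.0758 ± 0.128 CPM, a log2 fold change of 2.51 (SE 0.778, adjusted p = 0.0219). These fold changes average the difference in fat pad lines and that in lung lines, so they are not the ratios of the printed means. With origin and site as additive terms they were 2.59 for Hoxa5 and 2.34 for Hoxa6. In this comparison 18.8% of all tested genes were higher and 20.2% lower in YEJG-derived lines, so a call was common. YEJH-M1, at 1.00 CPM of Hoxa5, lay above YEJG-FP at 0.928, and the groups overlapped for both genes. When lung lines alone were compared, an alternative chosen after seeing the data that drops YEJG-FP and the YEJH fat pad lines, the Hoxa5 difference was 1.79 (adjusted p = 0.0514) and that of Hoxa6 1.89 (adjusted p = 0.117), and leaving out YEJG-M2 gave 2.37 for Hoxa6 (adjusted p = 0.0572). Libraries were sequenced under 2 run names, called A and B here. In run A Hoxa5 lay between 0.783 and 1.23 CPM in the 3 YEJG-derived lines and had a median of 0.0944 and a maximum of 1.28 CPM in the 10 YEJH-derived lines, so the groups overlapped. In run B it lay between 1.22 and 1.63 CPM against a median of 0.0967 and a maximum of 0.868. The fit of run B alone called 15.3% of tested genes higher and 18.7% lower in YEJG-derived lines.

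The parental lines are 1 line each, so a test between them borrows its spread from the other groups. Between YEJG and YEJH neither gene was called by the edgeR test (adjusted p = 0.741 for Hoxa5 and 0.758 for Hoxa6), with 2.43% of tested genes higher and 4.22% lower in YEJG. With 1 Hoxa5 read against 0 and 0 Hoxa6 reads against 1, this depth could not show a difference or its absence. For YEJG-derived lines against their parental line the edgeR adjusted p was 0.0629 for Hoxa5 and 0.14 for Hoxa6, above the threshold of 0.05, while 8.38% of tested genes were called higher and 9.37% lower. The unadjusted p in that comparison was 0.0122 and 0.038. The parental line and the fat pad line are 1 line each there and are assumed to vary like the other groups. DESeq2 called Hoxa5 in the same comparison with an adjusted p of 0.0349, where it called 10.6% of its tested genes higher. For YEJH-derived lines against YEJH the edgeR adjusted p was 0.491 for Hoxa5 and 0.847 for Hoxa6, with 1.07% of tested genes higher and 1.58% lower.

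Site of origin was compared within YEJH, 5 lung lines against 5 fat pad lines. Hoxa5 had a mean of 0.364 ± 0.377 CPM in lung lines and 0.0447 ± 0.0536 in fat pad lines (SD over lines), with an unadjusted p of 0.00412 and an adjusted p of 0.389 in edgeR. Single lines moved this difference. The fitted log2 difference of Hoxa5 was 2.91 with all lines, 2.06 without YEJH-M1 and 3.80 without YEJH-FP2. In edgeR the adjusted p was 0.469 and 0.662 in the latter 2 fits. Hoxa6 had 0.11 ± 0.179 and 0.0422 ± 0.0425 CPM (adjusted p = 0.876). The higher lung mean of Hoxa6 rested on YEJH-M1 at 0.428 CPM, since the other lung lines had at most 0.0491 CPM and the fitted log2 difference without YEJH-M1 was -0.52 (adjusted p = 0.933 in edgeR). Neither passed, in a comparison in which 0% of tested genes were called higher and 0.0117% lower in lung lines. In limma with libraries kept apart and a correlation within lines, Hoxa5 was called (adjusted p = 0.0105) among the 0.816% of tested genes called higher in lung lines by that fit, against 0% in edgeR. DESeq2 gave no adjusted p for either gene. The difference between sites was not called as different between origins (interaction, edgeR adjusted p = 0.255 for Hoxa5 and 0.66 for Hoxa6).

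Sister lines of YEJH differed from one another by more than their technical repeats. Over the 10 YEJH-derived lines, with libraries kept apart, the run as a term and no filter on low counts, edgeR's test for any difference between lines gave an adjusted p of 4.08e-14 for Hoxa5 and 0.0028 for Hoxa6. It gave 0.867 for Hoxa3 and 1 for Hoxa2, Hoxa4, Hoxa7 and Hoxd8. Of the 29131 genes tested 15.6% were called. This compares lines with the spread of technical repeats only. The filter was dropped after seeing the data, because no member passed it over single libraries.

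Transcripts and genes that border the clusters were read from a fixed list. Of 9 named non-coding transcripts of the clusters, Hotair, Hottip, Haglr, Hoxb5os, Hoxb3os and Hoxd3os1 had 0 reads. Hotairm1, a non-coding RNA from the anterior end of HoxA, was present in all 15 lines at 0.607 to 1.36 CPM, the parental lines included, and was lowest in the 2 YEJG lung lines. Hoxaas3, antisense within HoxA, had 7 reads in YEJG-M1, 3 in YEJG-M2 and 2 in the other 13 lines together. Of the 12 genes that flank the clusters, 9 were tested and 1, Hibadh beside HoxA, was higher in YEJG-derived than in YEJH-derived lines, by 0.17 on the log2 scale (SE 0.0526, adjusted p = 0.0231 in edgeR). None of the 9 was lower. In this comparison 18.8% of all tested genes were higher and 20.2% lower, so 1 call is no result about the flanking genes. Skap2, also beside HoxA, stood at 19.3 to 24.7 CPM, and Cbx5 beside HoxC at 501 to 814 CPM, while Evx1 and Evx2, the homeobox genes at the posterior ends of HoxA and HoxD, had 0 reads. Beside HoxD, Lnpk stood at 32.3 to 39.2 CPM and Mtx2 at 54.6 to 75.0, and beside HoxB Snx11 stood at 24.2 to 31.3 CPM.

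Of 9 TALE homeodomain cofactors, which bind DNA together with Hox proteins, 7 reached a mean of 1 CPM over all lines and 2 reached it in no line, and the summed level of the 9 ran from 119 to 153 CPM. Between origins 3 of 8 tested were higher in YEJG-derived lines and none lower, with a median log2 fold change of 0.09 against 0.00 over all tested genes, of which 18.8% were higher and 20.2% lower. These were Meis2 (0.88, SE 0.113, adjusted p = 6.79e-05 in edgeR), Meis1 (0.60, SE 0.0826, adjusted p = 0.000109) and Meis3 (1.52, SE 0.383, adjusted p = 0.0071). Against the YEJG parental line 2 of 8, Meis1 and Meis3, were called higher in YEJG-derived lines, beside 8.38% of all tested genes. Meis1 stood at 6.49 CPM in YEJG, 6.74 in YEJG-FP, 13 in YEJG-M1 and 12 in YEJG-M2, so that the fat pad line lay near the parental level. Meis3 stood at 0.293 CPM in YEJG and at 1.42, 4.59 and 1.61 in the same derived lines. Within YEJH 0 of 8 differed between sites, in a comparison in which 0% of tested genes were called higher and 0.0117% lower.

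Regulators of the clusters were measured as well. All 19 Polycomb genes of the list reached 1 CPM, and 5 were higher and 6 lower in YEJG-derived than in YEJH-derived lines. Of all tested genes in this comparison 18.8% were higher and 20.2% lower. Whether the list differed from these shares was not tested. Among those with the smallest adjusted p were Cbx8 (fell by 0.75 on the log2 scale, adjusted p = 1.47e-06 in edgeR), Phf19 (rose by 0.85, adjusted p = 8.08e-06) and Cbx2 (fell by 0.85, adjusted p = 9.06e-06). Cbx2 and Cbx8 are chromobox subunits of Polycomb complex 1, and Phf19 is an accessory subunit of complex 2. The catalytic subunit Ezh2 fell by 0.19 (adjusted p = 0.0235). Of 11 Trithorax genes and demethylases of histone H3 lysine 27, 1 was higher (Men1, by 0.24, adjusted p = 0.00375) and 0 were lower. Of 12 genes of retinoic acid signalling, a known inducer of anterior Hox genes, 7 were tested and Rxrb was higher (by 0.40, adjusted p = 7.2e-05). Cdx and ParaHox genes were near absent, with at most 0.681 CPM summed over 6 genes in a line.

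The lines with HoxA reads did not share one marker profile. All 6 epithelial markers were lower and all 4 tested of 7 fibroblast markers were higher in YEJG-derived than in YEJH-derived lines. Of all tested genes 20.2% were lower and 18.8% higher in this comparison. Summed epithelial markers were 9080 CPM in YEJG, 6320 in YEJG-FP and 3590 to 3650 in the YEJG lung lines, against 7650 to 10400 in the YEJH-derived lines. Summed fibroblast markers were 1.98 CPM in YEJG, 11.4 in YEJG-FP and 71.4 to 86.4 in the YEJG lung lines, and 2.61 to 6.25 in the YEJH-derived lines. Lum and Thy1 had 0 reads in all lines and Dcn had at most 9 in a line. Over all lines Pdgfra reached 42.2 CPM and Pdgfrb 73.1, whereas Col1a1 reached 3.97 and Col1a2 4.94. YEJH-M1, with Hoxa5 at 1.00 CPM, had 10400 CPM of epithelial markers and 6.25 CPM of fibroblast markers, the highest sums among the YEJH-derived lines for both lists. Leukocyte markers summed to at most 2.84 CPM, endothelial markers to 0.816 and adipocyte markers to 0.0239, and lung epithelial markers, of which 3 had 0 reads in all lines, to 1.74 to 53.8 CPM. The part of these markers in the Hoxa5 and Hoxa6 differences was not tested. In lines, fewer cells with a transcript and less transcript per cell cannot be told apart.

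**Figure D4:**
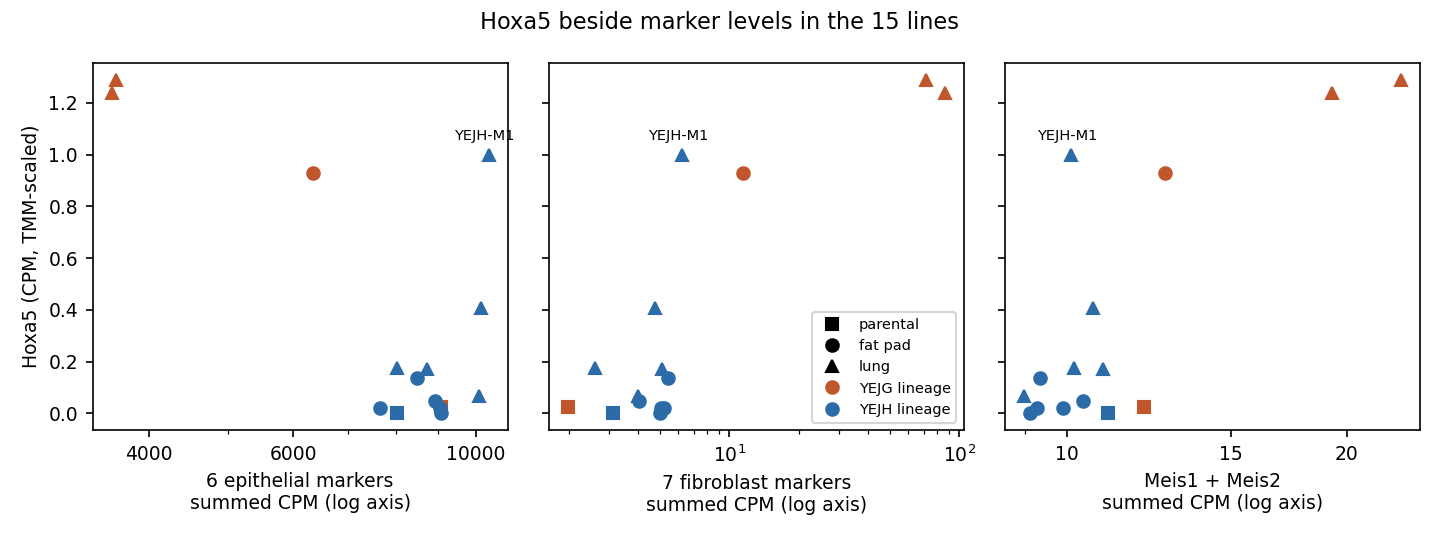
Hoxa5 in TMM-scaled CPM (vertical axis) against summed CPM of 6 epithelial markers, 7 fibroblast markers, and Meis1 with Meis2 (log axes), 1 point per line with its parental origin by colour and its site by shape. YEJH-M1 has 1.00 CPM of Hoxa5 with 10400 CPM of epithelial markers, whereas the YEJG lung lines have 3590 to 3650.

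The library of YEJG-M1 repeat 1 bears YEJH_M1 in its library name. It had 3910 CPM of epithelial and 70.9 CPM of fibroblast markers, close to the other YEJG-M1 libraries (3480 and 3550, 71.3 and 72.1) and not to those of YEJH-M1 (9810 to 11400, 6.09 to 6.45). Without it Hoxa5 and Hoxa6 were both still called between origins, in a fit that called 18% of tested genes higher and 19.7% lower.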

How the data were processed

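Raw counts of reads per gene were deposited by the authors, without normalisation, for 45 libraries of 15 mouse cell lines (TruSeq RNA v2, poly-A, NextSeq500). The submitters' processing notes name FastQC, HISAT2, SAMtools 1.2 and HTSeq, and the human build GRCh38, whereas the gene identifiers are those of mouse; the annotation release and strand setting are not given in the sources used here. Symbols came from GRCm39 annotation (92.6% of identifiers matched). The authors' unassigned totals were left out, and 0 columns were unmapped. A class of low alignment quality held at least 822828 reads per library in run A and 0 in run B; what differed between the runs was not tested.

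Counts were summed over the 3 technical repeats of a line, which is the unit of replication, and fitted with edgeR 4.0.16 (R 4.3.3; TMM, filterByExpr with a minimum count of 10, quasi-likelihood, threshold 0.05). The test was tested on simulated data. Alternatives used limma 3.58.1 and DESeq2 1.42.0. For its own comparison of sites, which states fewer lines than the 13 derived lines used here, the study describes independent lines from separate mice, with the lung lines isogenic and taken after the primary tumour was removed. Which of the 13 lines, if any, share a mouse is not given in the sources used here, and p-values measure the spread between these lines. Members and lists were chosen with earlier results of these data known. Members expressed in a line were named with levels, and up to 4 genes of a list were named by adjusted p. Log2 fold changes of the main comparisons were printed for members only where called. Exceptions are Hoxa5 and Hoxa6 between YEJH sites, given with values under alternatives. Ezh2, and the neighbours, non-coding transcripts and marker genes given by level, were named after their values were seen. 1 further protein-coding Hox gene, so that 38 of 39 are described, and single values of 2 genes of the lists are not reported here.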

Additional observations from a re-analysis of the deposited data

Results flagged for a closer look

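Hoxa6 in YEJH-M1, at 0.428 CPM, stood apart from the other 4 lung lines of YEJH, which lay between 0 and 0.0491 CPM. Its gap to the nearest line was 0.885 of the range of the 5 lines, above the critical value of 0.71 for 5 values. Chance flags about 1 in 20 such groups, and 4 groups were examined (Hoxa5 and Hoxa6, each in 5 fat pad and 5 lung lines of YEJH). Hoxa5 in the same line, at 1.00 CPM, had a gap of 0.636 of the range and was not past that value.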

How the results depend on the processing

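At 2 CPM or more, 0 members and 0 pairs of a member and a line counted as expressed, against 1 and 3 at 1 CPM, and leaving out a technical repeat gave 2 to 3 pairs. Between origins, where 2 members were called, 1 was called with DESeq2 (18.5% of tested genes called higher, 18.8% in the edgeR fit of the report), 1 in run B only (15.3%), 1 in each of the limma fits with libraries kept apart (plain, with run as a covariate, and with the technical repeat number as a replicate block, 24.5% to 26.4%), in which Hoxa6 was not among the tested genes, and 4 without a filter (Hoxa3 and Hoxa7 added, 8.83%). Leaving out 1 line or 1 repeat gave 1 to 2 calls, and the count of 1 came without YEJG-M2. Log2 fold changes were 2.65 to 3.46 for Hoxa5 and 2.34 to 3.40 for Hoxa6. These fits called 15.6% to 19.8% of tested genes higher and 17.9% to 21.3% lower. Comparing lung lines only, which drops YEJG-FP and also the YEJH fat pad lines, gave 0 calls (21% of tested genes called higher), at 1.79 for Hoxa5 and 1.89 for Hoxa6. Hoxa6 had an adjusted p of 0.0728 in DESeq2 and 0.0538 in run B. Between YEJH sites 1 member, Hoxa5, was called in each of the 3 limma fits, which called 0.767% to 0.816% of tested genes higher (0 members in edgeR, with 0% of genes called higher). Against the YEJG parental line 0 members were called in edgeR. There Hoxa5 was called with DESeq2 (10.6% of tested genes called higher) and in run B only (6.89%). It was also called in each of the 3 limma fits, which called 11.8% to 12.4% of tested genes higher. The cause was not tested. No called member changed direction in any alternative, and Hoxa6 between YEJH sites, which was not called, went from 1.27 to -0.52 without YEJH-M1. Numbers in names were compared by the correlation across genes of deviations from the group mean. Fat pad and lung lines of YEJH with 1 number correlated at -0.118 to 0.0234 (mean -0.0324, and 0.00819 for other numbers). Libraries of different lines with 1 technical repeat number correlated at -0.847 to 0.847. The line number as a replicate block gave 0 calls between sites. These values cannot show whether lines of 1 number share a mouse. DESeq2 gave no adjusted p for either member between YEJH sites or between parental lines. At 0 to 56 reads of a member per line, counting error limits every Hox level given here.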

Other observations

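Genes whose level over the 15 lines was most like that of Hoxa5 were ranked by Pearson's r of log2(CPM + 0.1), among 11482 protein-coding genes that reached 1 CPM in a line, as a description and chosen after seeing the data. The lines share parental origins and are not independent. The first was Baz1b, a chromatin remodeller subunit (r = 0.94), although its level differed little, from at most 318 CPM in the parental lines to 338 to 345 in the YEJG-derived lines. Six4, a homeobox gene, followed (r = 0.893), with 18.1 CPM in the higher parental line, 24.1 to 26.1 in the YEJG-derived lines, 25.1 in YEJH-M1 and a median of 19.2 in the other YEJH-derived lines. Sparc, a secreted matrix protein (r = 0.891), stood at 6.99 CPM in the higher parental line, at least 102 in the YEJG-derived lines and 78.1 in YEJH-M1, against at most 124 CPM in the other YEJH-derived lines.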
